A study of Mus musculus with 6 samples.

Results

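The 10 genes *Wt1*, *Tcf21*, *Tbx18*, *Bnc1*, *Aldh1a2*, *Upk3b*, *Upk1b*, *Msln*, *Sema3d* and *Krt19*, which are markers of the epicardium and of the proepicardium, were followed in E9.5 mouse hearts with and without SMYD1. They were chosen by symbol from the 54532 genes of the raw count table, all 10 were found, and all 10 were among the 19372 genes that passed the filter on low counts. Whole hearts were dissected at embryonic day 9.5, RNA was taken from each heart on its own, and RNA-seq was run on 3 *Smyd1-KO* and 3 WT hearts. The *Smyd1-KO* hearts were homozygous for a conventional null allele of *Smyd1*, which encodes a muscle-restricted histone methyltransferase. The allele was thus present in every cell and not in the epicardium alone. Both genotypes were untreated and of the same age, embryos of both sexes were used, and the genetic background and litter of each heart were not given in the sources used here.

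The proepicardium is a cluster of mesothelial cells that forms beside the inflow tract of the early heart tube, next to the septum transversum. Its cells cross to the heart at about the stage sampled here and spread over the myocardium as the epicardium, a simple epithelium. Some epicardial cells later leave this epithelium and become fibroblasts and mural cells of the coronary vessels, and the epicardium is known as a source of retinoic acid and of growth factors for the myocardium.

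Of the 10 genes, *Krt19* was the only one that rose in *Smyd1-KO* hearts past both thresholds, which were an adjusted P-value under 0.05 by edgeR's quasi-likelihood test and a log2 fold change of 0.5 or more in either direction. None fell. Over all genes tested, 4.28% passed these thresholds, 2.86% higher and 1.42% lower in *Smyd1-KO* hearts. Without the adjustment, 4 of the 10 genes (*Krt19*, *Upk3b*, *Wt1* and *Bnc1*) had P under 0.05 and were higher, against 13.1% of all genes. These 4 genes passed both thresholds in DESeq2, in which 5.98% of all genes did so as higher. When *Smyd1-KO* heart 1 was left out, 4 genes also passed in edgeR (*Krt19*, *Upk3b*, *Wt1* and *Tbx18*), against 4.04% of all genes. Leaving out another heart gave fewer. Only *Krt19* passed without *Smyd1-KO* heart 3 or without WT heart 1, and 0 genes passed without *Smyd1-KO* heart 2, WT heart 2 or WT heart 3. For *Upk3b*, *Bnc1* and *Krt19* every *Smyd1-KO* heart was above every WT heart, as for 15.9% of all genes. The fold change was positive for 9 genes and negative for *Sema3d*, with a median log2 fold change of 0.48 beside -0.0026 over all genes tested. RNA was measured from whole hearts, so more cells of a type and more RNA per cell cannot be told apart.

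The targeted gene and the tissue were checked first. *Smyd1* had 101, 222 and 206 CPM (counts scaled to one library size) in the *Smyd1-KO* hearts numbered 1, 2 and 3, and 414, 379 and 270 CPM in the WT hearts. Every *Smyd1-KO* heart was below every WT heart, and the log2 fold change of -1.01 (SE 0.300) had an adjusted P of 0.0973 by edgeR and of 0.00534 by DESeq2. Which exons the allele removes was not given in the sources used here. Total counts ran from 48627825 to 64217529 per heart. The 15 cardiomyocyte markers were detected in every heart, with a summed level of 10342 CPM in *Smyd1-KO* heart 1 and 13597 CPM in WT heart 3, and between 21181 and 23080 CPM in the other 4 hearts. All 10 erythroid markers were lower in every *Smyd1-KO* heart than in every WT heart, and the share of all genes with this order was not counted. The 10 epicardial genes together had 317, 496 and 561 CPM in the *Smyd1-KO* hearts numbered 1, 2 and 3, and 243, 199 and 223 CPM in the WT hearts. *Krt19* made up a large part of these sums, and without it they were 188, 262 and 349.6 CPM against 169.9, 145 and 179 CPM, so *Smyd1-KO* heart 1 was then close to WT heart 3. Of the 10 genes, 9 were above 1 CPM in every heart and *Msln* was near 0.

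**Figure D1:**
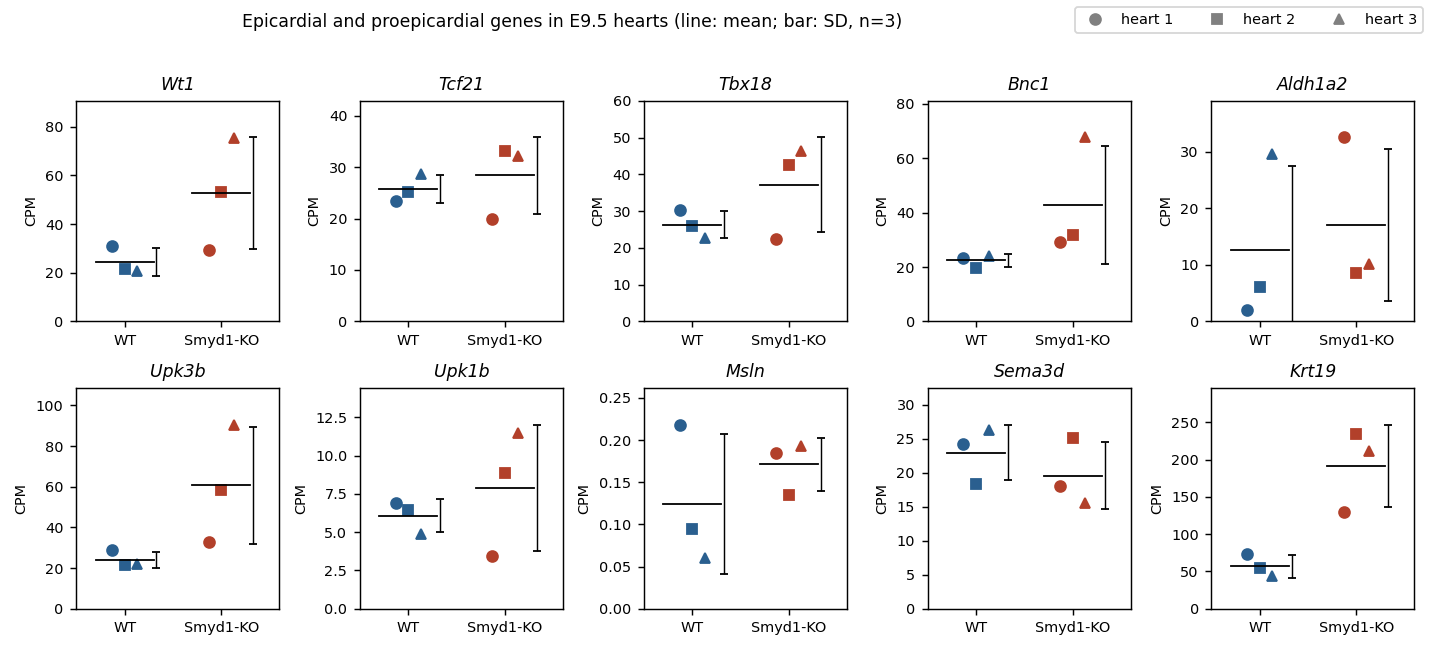
CPM of each of the 10 genes (vertical axis, from 0, scaled for each gene) in 3 WT hearts (blue) and 3 *Smyd1-KO* hearts (red), with symbols giving the heart number, lines the mean and bars the SD, which is cut at 0 for *Aldh1a2* in WT hearts. *Krt19*, *Upk3b* and *Bnc1* had no overlap between genotypes, and *Aldh1a2* had 1 high heart in each genotype.

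Promoters were found in RefSeq (GRCm38.p6) for 6 of the 10 genes, and 3 are shown because their genes stood at different places in the comparison. *Upk3b* and *Bnc1* had no overlap between genotypes, whereas *Tcf21* had nearly equal means. Each run is the 250 bases before the start annotated in RefSeq, read 5′ to 3′ on the strand of the gene. *Upk3b* lies on the plus strand and its run is chr5:136038246-136038495, *Bnc1* lies on the minus strand and its run is chr7:81992300-81992549, and *Tcf21* lies on the minus strand and its run is chr10:22820144-22820393. Capitals mark matches, on either strand, to motifs known from other genes. GGAATG is bound by TEAD factors. AGATAA is bound by factors of the GATA family. ACGTG is the core of the hypoxia response element. TATAAA is the TATA box.
Upk3b: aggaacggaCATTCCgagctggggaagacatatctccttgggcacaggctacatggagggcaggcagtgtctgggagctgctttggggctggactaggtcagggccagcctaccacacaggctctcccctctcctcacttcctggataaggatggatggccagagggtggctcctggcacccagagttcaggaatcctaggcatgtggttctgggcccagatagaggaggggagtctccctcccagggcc
Bnc1: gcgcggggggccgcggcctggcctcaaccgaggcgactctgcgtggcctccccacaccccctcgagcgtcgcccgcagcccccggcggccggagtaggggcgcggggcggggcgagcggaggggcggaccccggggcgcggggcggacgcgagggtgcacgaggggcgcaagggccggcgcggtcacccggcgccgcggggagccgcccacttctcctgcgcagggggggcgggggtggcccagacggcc
Tcf21: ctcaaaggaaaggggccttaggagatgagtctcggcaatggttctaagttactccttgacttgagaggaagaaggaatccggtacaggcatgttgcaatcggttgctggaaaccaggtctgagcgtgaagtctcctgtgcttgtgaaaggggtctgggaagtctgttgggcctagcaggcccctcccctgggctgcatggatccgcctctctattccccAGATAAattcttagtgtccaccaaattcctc
The *Upk3b* run held the TEAD motif 241 bases before the start, and the *Tcf21* run held the GATA motif 31 bases before the RefSeq start. GENCODE, used here for gene positions, starts *Tcf21* at chr10:22820174 on the minus strand. The end of the *Tcf21* run, with the GATA motif, thus lies inside the GENCODE gene and not before it. The *Bnc1* run held none of the 4 motifs and had a GC content of 83.6%, against 60.8% for *Upk3b* and 52.4% for *Tcf21*. Of the 3 runs not shown, that of *Aldh1a2* held the hypoxia response core 41 bases before the start, and those of *Tbx18* and *Sema3d* held no match. Among all 32851 RefSeq promoters of the same length, 12.6% held the TEAD motif, 9.99% the GATA motif, 16.6% the hypoxia response core and 12.4% the TATA box, so these matches are descriptions of the letters only.

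The transcription factors of the list did not move alike. *Wt1*, a zinc finger factor of the mesothelium, had 29.3, 53.1 and 75.3 CPM in the *Smyd1-KO* hearts numbered 1, 2 and 3, and 30.8, 21.4 and 20.8 CPM in WT hearts 1, 2 and 3. *Smyd1-KO* hearts 2 and 3 were above all WT hearts, whereas *Smyd1-KO* heart 1 was just under WT heart 1, so the groups overlapped by 1 heart. The mean over *Smyd1-KO* hearts was 52.6 ± 23.0 CPM, and that over WT hearts was 24.3 ± 5.64 CPM (SD, n = 3 each). The log2 fold change of 1.11 (95% interval 0.34 to 1.89) had an adjusted P of 0.0945 by edgeR. The thresholds were passed in DESeq2 (adjusted P = 0.00395), and in edgeR when *Smyd1-KO* heart 1 was left out (adjusted P = 0.0150). They were also passed in edgeR with all hearts and no filter on low counts (adjusted P = 0.0446). *Wt1* lies at chr2:105126529-105173616.

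*Bnc1*, which encodes the zinc finger protein basonuclin 1 (chr7:81966672-81992292), had 29.1, 31.7 and 67.7 CPM in the *Smyd1-KO* hearts and 23.5, 19.7 and 24.1 CPM in the WT hearts. The groups did not overlap, but *Smyd1-KO* heart 3 stood far above the other two. Its log2 fold change was 0.93 (95% interval 0.19 to 1.67), with an adjusted P of 0.126 by edgeR and of 0.0167 by DESeq2. Without *Smyd1-KO* heart 3 the log2 fold change was 0.44 (SE 0.128), and that heart thus carried more of the difference than the others did. An overlapping pseudogene on the opposite strand shares 98 exon bases with *Bnc1*. It had at most 0.718 CPM in any heart, and whether the counting used strand was not given in the sources used here.

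*Tbx18*, a T-box factor of the proepicardium and the sinus horns (chr9:87702800-87731260), had 22.6, 42.7 and 46.5 CPM in the *Smyd1-KO* hearts and 30.2, 25.9 and 22.8 CPM in the WT hearts. *Smyd1-KO* heart 1 was the lowest of all 6 hearts and the other *Smyd1-KO* hearts were the highest. With all hearts the log2 fold change was 0.50 (95% interval -0.11 to 1.11; adjusted P = 0.279 by edgeR). Without *Smyd1-KO* heart 1 it was 0.76 and passed the thresholds, with an adjusted P of 0.0223 by edgeR. A transcript of unknown status on the opposite strand shares 970 exon bases with *Tbx18* and had at most 0.643 CPM.

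*Tcf21*, a basic helix-loop-helix factor of epicardial cells and of the fibroblasts they form (chr10:22817281-22820174), had 19.8, 33.1 and 32.2 CPM in the *Smyd1-KO* hearts and 23.4, 25.1 and 28.7 CPM in the WT hearts. *Smyd1-KO* heart 1 was again the lowest of the 6 hearts, and the other *Smyd1-KO* hearts were the highest. The means were 28.4 ± 7.41 and 25.7 ± 2.70 CPM (SD, n = 3 each). The log2 fold change of 0.14 had a 95% interval of -0.33 to 0.61 and an adjusted P of 0.699 by edgeR, so a change of up to 0.61 on the log2 scale could not be told from none with these hearts. An antisense gene overlaps the *Tcf21* gene without sharing exon bases and had at most 1.22 CPM.

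*Aldh1a2*, which encodes the retinaldehyde dehydrogenase that makes retinoic acid in the early embryo (chr9:71215789-71296243), had the widest interval of the 10 genes. It had 32.6, 8.51 and 10.2 CPM in the *Smyd1-KO* hearts and 2.0, 6.11 and 29.6 CPM in the WT hearts. One heart of each genotype, *Smyd1-KO* heart 1 and WT heart 3, was high, and the others were between 2.0 and 10.2 CPM. Between genotypes the log2 fold change was 0.44, with a 95% interval from -1.74 to 2.62 (adjusted P = 0.808 by edgeR), and its sign turned without *Smyd1-KO* heart 1 (-0.43) and without WT heart 1 (-0.06). Without WT heart 3 it was 2.07. The direction for *Aldh1a2* thus depended on single hearts. A pseudogene on the opposite strand, *Gm48124*, overlaps the *Aldh1a2* gene without sharing exon bases and had at most 0.0300 CPM.

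The hearts with high *Aldh1a2* were the hearts with the least cardiomyocyte RNA in their genotype. For 3706 of 19372 genes (19.1%), *Smyd1-KO* heart 1 was likewise the highest of its genotype and WT heart 3 the highest of its own. Of the marker lists, 4 of 8 foregut and lung epithelium genes (*Foxa2*, *Shh*, *Sox2* and *Cldn6*) had this order, as had 3 of 6 neural crest genes. It was found in 0 of 15 cardiomyocyte markers. In the retinoic acid pathway 4 of 18 genes (*Stra6*, *Rdh10*, *Crabp1* and *Rarb*) had it, a share close to the 19.1% of all genes. Of 7 receptors of class 3 semaphorins, 2 had it as well. The summed foregut and lung markers were at 304, 235 and 161 CPM in the *Smyd1-KO* hearts and at 140, 220 and 257 CPM in the WT hearts. All 8 markers were detected in every heart, at 0.648 CPM or more. The summed neural crest and mesonephros markers were likewise highest in *Smyd1-KO* heart 1 and in WT heart 3 of their genotypes. Neural crest sums were 231, 140 and 108 CPM in the *Smyd1-KO* hearts and 108, 102 and 139 CPM in the WT hearts. Mesonephros sums were 54.6, 35.7 and 23.2 CPM against 19.3, 45.1 and 50.0 CPM. The sums of the other cell type lists did not have this order. The part of these tissues in the values of *Aldh1a2* was not tested. Among the 10 epicardial genes, *Aldh1a2* alone had this order of hearts.

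**Figure D2:**
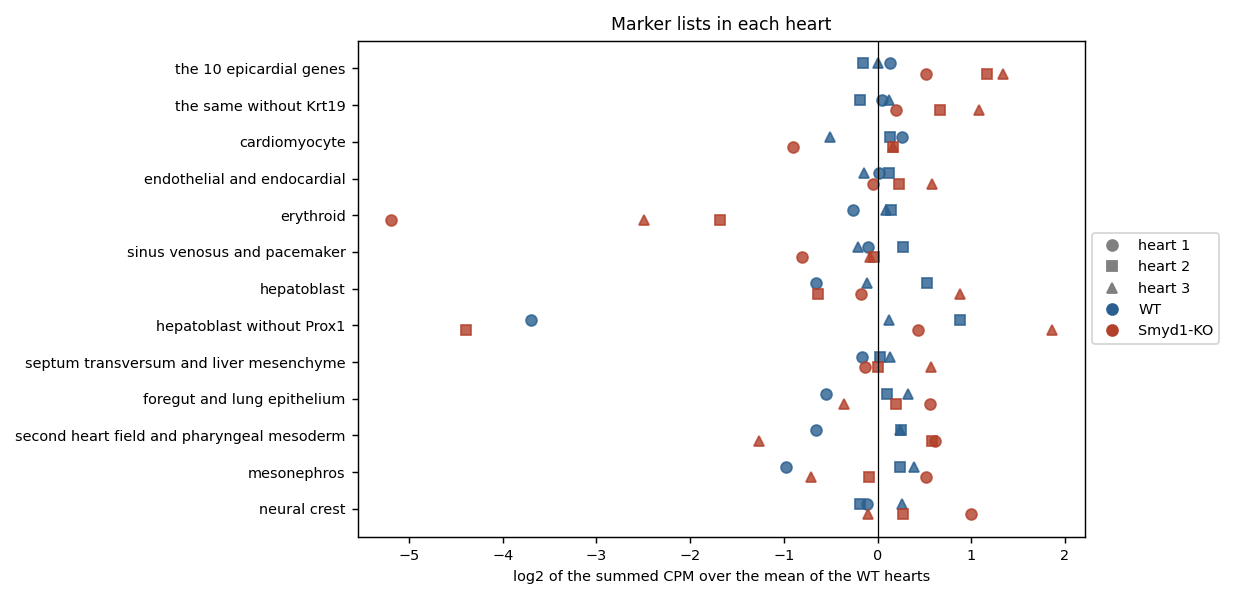
Summed CPM of the 10 epicardial genes, with and without *Krt19*, and of 10 lists of cell type markers (hepatoblasts with and without *Prox1*) in each heart, as the log2 of the ratio to the mean of the WT hearts (horizontal axis), with blue for WT, red for *Smyd1-KO* and symbols for the heart number. The epicardial genes were above 0 in all *Smyd1-KO* hearts, least in *Smyd1-KO* heart 1 without *Krt19*, the cardiomyocyte list was lowest in *Smyd1-KO* heart 1, and the erythroid list was below 0 in all *Smyd1-KO* hearts.

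The membrane proteins of the list included the pair of uroplakins, which are known from the bladder surface and also mark mesothelium, and mesothelin. *Upk3b* (chr5:136038496-136046487) had 32.9, 58.6 and 90.5 CPM in the *Smyd1-KO* hearts and 28.7, 21.5 and 22.2 CPM in the WT hearts. The groups did not overlap, although *Smyd1-KO* heart 1 was close to WT heart 1. The mean was 2.51-fold higher in *Smyd1-KO* hearts, and the log2 fold change of 1.33 (95% interval 0.54 to 2.12) had an adjusted P of 0.0656 by edgeR, just outside the threshold. DESeq2 gave an adjusted P of 0.000375, and edgeR gave 0.00810 without *Smyd1-KO* heart 1. With all hearts and no filter on low counts, edgeR gave 0.0215. For *Upk3b* the call thus turned on the tool, on the filter and on 1 heart. *Upk3bl*, a paralog that lies close to *Upk3b* on the same strand and was named here after its values were seen, had between 0.101 and 0.761 CPM.

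*Upk1b* (chr16:38773184-38800328), a tetraspanin that pairs with the other uroplakins, had 3.41, 8.85 and 11.5 CPM in the *Smyd1-KO* hearts and 6.92, 6.44 and 4.87 CPM in the WT hearts. *Smyd1-KO* heart 1 was below all WT hearts and the other *Smyd1-KO* hearts were above them. Its log2 fold change was 0.38 (95% interval -0.57 to 1.33; adjusted P = 0.598 by edgeR). *Msln*, which encodes mesothelin (chr17:25748613-25754378), had 9, 8 and 11 counts in the *Smyd1-KO* hearts and 13, 6 and 4 counts in the WT hearts. The genotypes overlapped fully, and at this depth a difference was not detectable (log2 fold change 0.47, 95% interval -0.81 to 1.75, adjusted P = 0.637 by edgeR).

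*Sema3d*, which encodes a secreted semaphorin made by proepicardial cells (chr5:12383385-12588948), had 18.1, 25.1 and 15.6 CPM in the *Smyd1-KO* hearts and 24.2, 18.4 and 26.3 CPM in the WT hearts. The groups overlapped, and the lowest and the highest heart were *Smyd1-KO* heart 3 and WT heart 3. Its log2 fold change was -0.23 (95% interval -0.72 to 0.26; adjusted P = 0.533 by edgeR). Of the 7 receptors of this family, the neuropilins and the A and D plexins, 0 passed the thresholds with edgeR and DESeq2, and 0 had an unadjusted P under 0.05 in edgeR. Their median log2 fold change was 0.03, and *Nrp1* (0.29) and *Plxna2* (0.27) had the largest values. The *Sema3d* gene is overlapped, without shared exon bases, by the pseudogene *Gm8925* on the opposite strand, which had at most 1.54 CPM. On the same strand *Gm42909*, a transcript of unknown status, also overlaps it without shared exon bases and had at most 0.0677 CPM.

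*Krt19*, which encodes a keratin of simple epithelia and mesothelia (chr11:100140810-100148665), rose most of the 10 genes. It had 129, 235 and 211 CPM in the *Smyd1-KO* hearts numbered 1, 2 and 3, and 73.4, 54.1 and 43.3 CPM in WT hearts 1, 2 and 3. Every *Smyd1-KO* heart was above every WT heart, with a clear gap between the lowest *Smyd1-KO* heart and the highest WT heart. The mean over *Smyd1-KO* hearts was 191.6 ± 55.2 CPM, and that over WT hearts was 56.9 ± 15.3 CPM (SD, n = 3 each), a ratio of 3.37. The log2 fold change was 1.75 (SE 0.267, 95% interval 1.13 to 2.38), with an adjusted P of 0.0173 by edgeR and of 7.56e-10 by DESeq2. The call was lost without any 1 of 3 hearts, with an adjusted P by edgeR of 0.0517 without *Smyd1-KO* heart 2, 0.104 without WT heart 2 and 0.0730 without WT heart 3. The log2 fold change stayed between 1.58 and 1.99 when each heart was left out in turn.

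Other keratins of simple epithelia were among the related genes, and *Krt7*, *Krt8* and *Krt18* were named after their values were seen. *Krt8* had 339, 387 and 724 CPM in the *Smyd1-KO* hearts and 331, 254 and 257 CPM in the WT hearts. *Krt18*, its usual partner in keratin filaments, had 210, 249.6 and 328 CPM against 179, 146 and 168 CPM. *Krt7* had 24.9, 20.6 and 23.7 CPM against 17.7, 12.9 and 15.5 CPM. All of them were higher in every *Smyd1-KO* heart than in every WT heart, with log2 fold changes of 0.78, 0.68 and 0.58. None passed the thresholds in edgeR (adjusted P = 0.145, 0.0647 and 0.0636), whereas all of them passed in DESeq2 (adjusted P = 0.0310, 0.00429 and 0.00689). *Krt14*, also listed, went the other way, with a log2 fold change of -0.67 (adjusted P = 0.663 by edgeR) and overlapping groups.

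**Figure D3:**
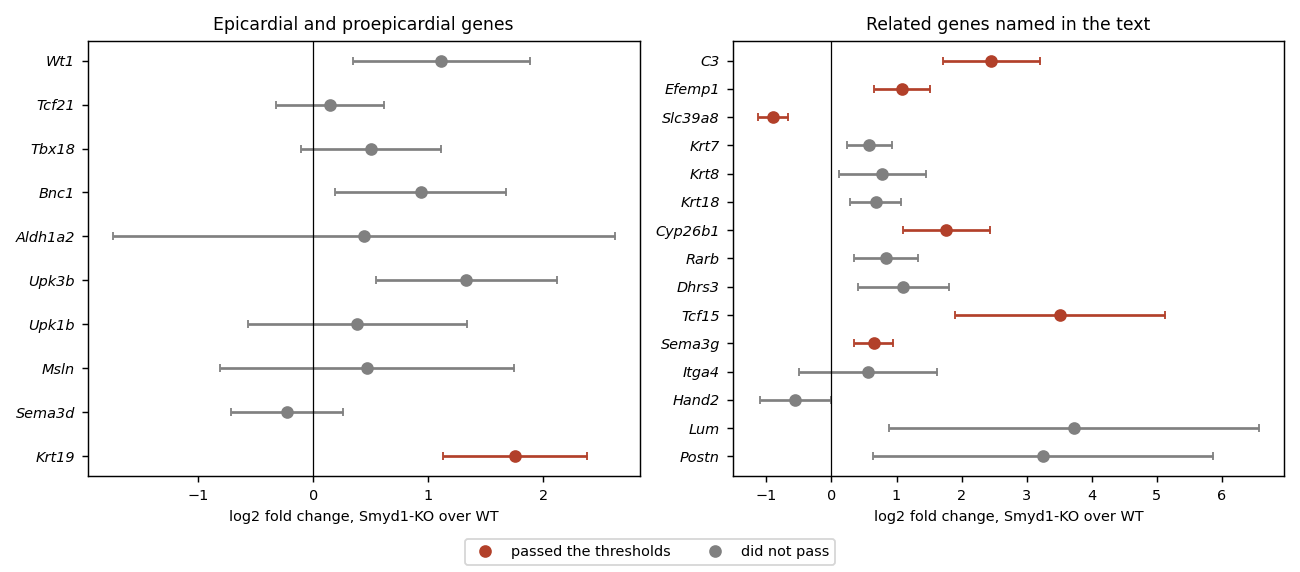
Log2 fold change of *Smyd1-KO* over WT hearts (horizontal axis) with 95% intervals from edgeR for the 10 epicardial genes (left) and for related genes named in the text (right), with red for genes that passed the thresholds and gray for the others. *Krt19* was the only red point on the left, at 1.75, and *Aldh1a2* had the widest interval.

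The same hearts were high for most of the 10 genes. *Smyd1-KO* heart 3 was the highest of all 6 hearts for 5 genes and *Smyd1-KO* heart 2 for another 2. *Smyd1-KO* heart 1 was the lowest *Smyd1-KO* heart for 7 of the 10 genes, and it was below every WT heart for 4 genes (*Tcf21*, *Tbx18*, *Upk1b* and *Sema3d*) and above every WT heart for another 4 (*Upk3b*, *Bnc1*, *Aldh1a2* and *Krt19*). *Smyd1-KO* hearts 2 and 3 were each above every WT heart for 7 genes. Relative to the WT mean, *Smyd1-KO* hearts 1, 2 and 3 had a median log2 deviation of 0.34, 0.53 and 0.89 over the 10 genes, and the WT hearts of 0.21, -0.16 and -0.15.

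*Smyd1-KO* heart 1 and WT heart 3 also had the least cardiomyocyte RNA, so the comparison was repeated without these hearts. This choice was made after the data were seen and left 1 heart fewer in each genotype. *Krt19* and *Upk3b* then passed the thresholds in edgeR, with log2 fold changes of 1.80 and 1.57 and adjusted P-values of 0.0120 and 0.0391, and 2.14% of all genes passed as higher. *Wt1* and *Tbx18* had log2 fold changes of 1.30 and 0.67 and adjusted P-values of 0.0532 and 0.0504. The median over the 10 genes was 0.93. *Smyd1-KO* heart 1 was the lowest *Smyd1-KO* heart for 7 of the 10 genes, so leaving it out tends by itself to raise the fold changes, and these values are not separate support.

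**Figure D4:**
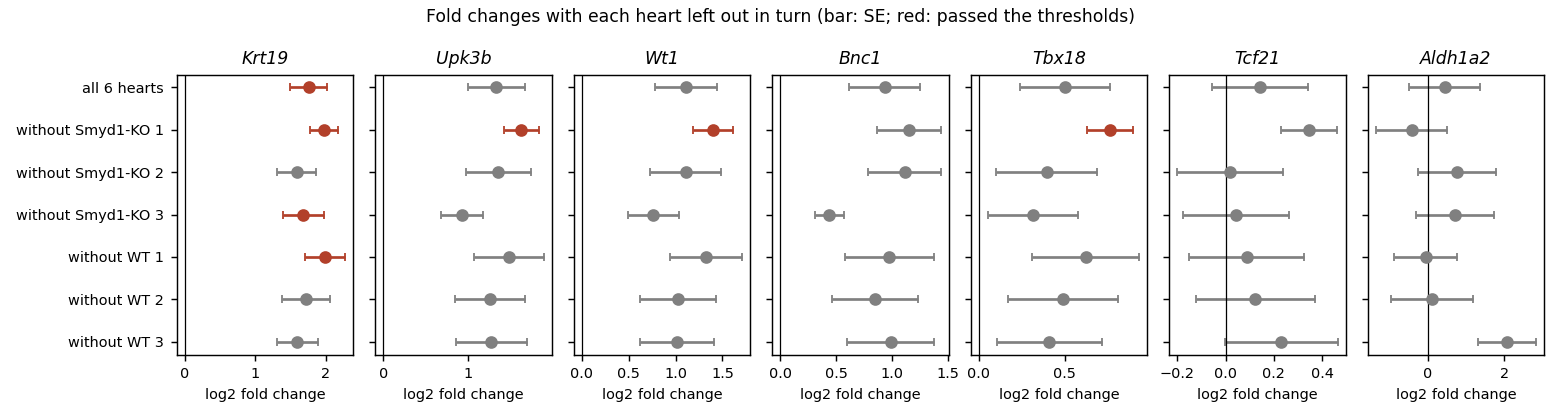
Log2 fold change with its SE for 7 of the genes with all 6 hearts and when 1 heart was dropped (horizontal axes scaled for each gene), with red where the thresholds were passed. Without *Smyd1-KO* heart 1 the genes *Krt19*, *Upk3b*, *Wt1* and *Tbx18* were red, whereas *Aldh1a2* ran from -0.43 to 2.07.

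Counts were also set against cardiomyocyte RNA within each heart, again a choice made after the data were seen. Per 1000 counts of the 15 cardiomyocyte markers, *Krt19* had 12.5, 10.9 and 9.75 counts in the *Smyd1-KO* hearts and 3.18, 2.55 and 3.18 in the WT hearts. The spread within each genotype was smaller on this scale, and the groups stayed apart. *Wt1* had 2.84, 2.46 and 3.48 counts against 1.33, 1.01 and 1.53, and on this scale its groups did not overlap. *Upk3b* and *Tbx18* did not overlap either, whereas *Bnc1* did, which makes 4 of 10 genes above every WT heart, against 6.81% of all genes. The 15 markers were themselves not equal between genotypes, with 11 negative and 4 positive log2 fold changes. *Myh6* was lower in every *Smyd1-KO* heart than in every WT heart (log2 fold change -0.71, adjusted P = 0.172 by edgeR), and *Nppa* had 1.44 (adjusted P = 0.0814 by edgeR). Their part in these ratios was not tested.

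Within WT hearts the 10 genes differed widely in level. In CPM per kilobase of exon, *Krt19* was highest (30.7 ± 8.23; SD, n = 3), followed by *Tcf21* (10.9), *Upk3b* (6.84), *Tbx18* (5.57), *Aldh1a2* (5.56), *Bnc1* (4.83), *Wt1* (3.93), *Upk1b* (2.91), *Sema3d* (2.67) and *Msln* (0.0406). The ranges over WT hearts were apart between *Krt19* and *Tcf21*, *Tcf21* and *Upk3b*, *Wt1* and *Upk1b*, and *Sema3d* and *Msln*, and other neighbours in this order overlapped. The order depended on the exon length used. With the longest transcript in place of all exons, 3 genes kept their rank and *Wt1* moved from rank 7 to rank 3.

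Beyond the 10 genes, lists of related genes were examined, and 6 of their genes passed the thresholds with all hearts. Over all genes tested, 4.28% passed. The number of related genes that passed ran from 0 without WT heart 2 to 8 without *Smyd1-KO* heart 1. Of 24 other epicardial and mesothelial genes, 23 were tested, with a median log2 fold change of 0.23. Of these, 2 rose and 1 fell, against 2.86% of all genes higher and 1.42% lower. *C3*, a complement component, had 2.24, 3.86 and 4.45 CPM in the *Smyd1-KO* hearts and 0.655, 0.756 and 0.511 CPM in the WT hearts, and rose by a log2 fold change of 2.46 (adjusted P = 0.0106 by edgeR). *Efemp1*, a matrix protein, had 7.28, 7.16 and 6.87 CPM against 3.84, 2.68 and 3.56 CPM and rose by 1.08 (adjusted P = 0.0230 by edgeR). Both were higher in every *Smyd1-KO* heart than in any WT heart. *Slc39a8*, a zinc and manganese transporter, had 23.0, 26.6 and 26.8 CPM against 44.5, 51.4 and 46.6 CPM and fell by 0.90 on the log2 scale (adjusted P = 0.00664 by edgeR). In DESeq2, 7 genes of this list passed as higher, against 5.98% of all genes, and 2 as lower. The lower ones were *Slc39a8* and *Gata5*, the latter named after its values were seen. *Gata5* was lower without overlap (log2 fold change -0.58, adjusted P = 0.0866 by edgeR and 0.0195 by DESeq2). Of 12 genes of epicardial attachment and induction, 0 passed the thresholds in edgeR or DESeq2. At an unadjusted P under 0.05 in edgeR, 1 was higher, against 13.1% of all genes, and 1 lower. *Itga4*, an integrin subunit needed for attachment to the myocardium, had a log2 fold change of 0.56, and *Hand2* had -0.55.

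Of 18 genes of the retinoic acid pathway, 1 passed the thresholds, as higher, against 2.86% of all genes. *Cyp26b1*, which degrades retinoic acid, had 77.1, 62.8 and 97.3 CPM in the *Smyd1-KO* hearts and 14.6, 31.7 and 23.4 CPM in the WT hearts. All *Smyd1-KO* hearts were above all WT hearts, and the log2 fold change of 1.77 (95% interval 1.09 to 2.44) had an adjusted P of 0.0203 by edgeR. In the list, 7 genes were higher, against 13.1% of all genes, and 0 lower at an unadjusted P under 0.05 in edgeR, and the median log2 fold change was 0.37. These included *Rarb* and *Dhrs3*, both known to respond to retinoic acid and named after their values were seen, with log2 fold changes of 0.83 and 1.10 and adjusted P-values of 0.0664 and 0.0761 by edgeR. For *Rarb* and *Dhrs3* every *Smyd1-KO* heart was above every WT heart, whereas for *Aldh1a2* the groups overlapped.

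Of 24 relatives of the 10 genes by family, 19 were tested, with a median log2 fold change of 0.58. Of these, 2 rose, against 2.86% of all genes, and 0 fell. *Tcf15*, a basic helix-loop-helix factor of somites and a relative of *Tcf21*, had 20.1, 3.52 and 5.40 CPM in the *Smyd1-KO* hearts and 0.823, 1.10 and 0.616 CPM in the WT hearts. It was higher in every *Smyd1-KO* heart, most in *Smyd1-KO* heart 1 (log2 fold change 3.51, adjusted P = 0.0351 by edgeR). *Sema3g* had 14.9, 14.5 and 14.2 CPM against 9.60, 10.1 and 8.14 CPM and rose by 0.65 (adjusted P = 0.0368 by edgeR), whereas *Sema3d* did not pass.

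Of 19 genes of epicardial epithelial-to-mesenchymal transition and of the mesenchyme, 0 passed the thresholds in edgeR and 4 passed in DESeq2, 3 higher and 1 lower. In edgeR 10 were higher, against 13.1% of all genes, and 1 lower at an unadjusted P under 0.05, and the median log2 fold change was 0.40. *Postn*, a matrix protein of fibroblasts and cushions, had 150.1, 27.0 and 617.5 CPM in the *Smyd1-KO* hearts and 39.5, 7.04 and 36.9 CPM in the WT hearts. *Lum*, a collagen-binding proteoglycan, had 32.2, 4.21 and 142 CPM against 6.50, 1.02 and 5.93 CPM. Both were by far the highest in *Smyd1-KO* heart 3, which was also the highest heart for *Wt1*, *Bnc1* and *Upk3b*, and both overlapped between genotypes because *Smyd1-KO* heart 2 was low. *Col1a1*, *Col1a2*, *Col3a1* and *Dcn*, named after their values were seen, were also highest in *Smyd1-KO* heart 3, so several of the higher genes leaned on that heart. *Col1a2* and *Col3a1* overlapped between genotypes, whereas *Col1a1* and *Dcn* were higher without overlap. *Tgfb2*, also named after its values were seen, was lower without overlap (log2 fold change -0.74, adjusted P = 0.110 by edgeR and 0.0186 by DESeq2).

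Markers of neighbouring tissues were counted for the same hearts. Of 6 septum transversum and liver mesenchyme genes, 8 hepatoblast genes tested, 6 sinus venosus genes, 7 second heart field genes and 5 mesonephros genes, 0 passed the thresholds in edgeR or DESeq2, and 0 had an unadjusted P under 0.05 in edgeR. The summed septum transversum markers had 272.7, 301.6 and 445.8 CPM in the *Smyd1-KO* hearts and 267.5, 304.7 and 329.1 CPM in the WT hearts. The hepatoblast markers had 60.8, 44.0 and 125.9 CPM against 43.4, 98.7 and 63.5 CPM. *Prox1*, which the heart also expresses, gave 32.8 to 60.4 CPM of these sums, and without it the other 9 genes had 28.1, 0.998 and 75.6 CPM in the *Smyd1-KO* hearts and 1.61, 38.3 and 22.7 CPM in the WT hearts. *Smyd1-KO* heart 3 was the highest heart for both lists, as it was for 5 of the 10 epicardial genes, and *Smyd1-KO* heart 2 and WT heart 1 had little hepatoblast RNA. Of the 8 foregut and lung genes and the 6 neural crest genes, 0 passed in edgeR and 1 of each list passed in DESeq2, both named after their values were seen. *Nkx2-1*, a factor of the lung and thyroid, had 0.946, 3.11 and 0.648 CPM in the *Smyd1-KO* hearts and 7.82, 12.9 and 7.07 CPM in the WT hearts, lower without overlap (log2 fold change -2.56, adjusted P = 0.0529 by edgeR and 0.00548 by DESeq2). *Ets1*, which endothelial cells also express, was higher without overlap (log2 fold change 0.52, adjusted P = 0.0647 by edgeR and 0.0115 by DESeq2). At an unadjusted P under 0.05 in edgeR, 1 foregut gene was lower and 2 neural crest genes were higher, against 13.1% of all genes as higher. The part of these tissues in the epicardial values was not tested.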

How the data were processed

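RNA-seq was performed on 3 *Smyd1-KO* and 3 WT hearts at E9.5. The deposited raw counts per gene were used for all tests. The authors' normalized table (unit signal, normalized counts) was used only for its size factors, which equalled the ratio of both tables to a relative tolerance of 1e-04. The submitters' processing notes name STAR, DESeq2 and mm10 (GRCm38). The counting tool, annotation version and strand setting were not given in the sources used here. Depth was 48627825 to 64217529 counts per heart.

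Groups were taken from the sample labels. Genes were filtered with filterByExpr, scaled by TMM and tested with edgeR 4.0.16 (glmQLFit, glmQLFTest, R 4.3.3), with Benjamini-Hochberg adjustment over 19372 genes and the thresholds of the study's methods (adjusted P under 0.05, absolute log2 fold change of at least 0.5). SEs and 95% intervals came from this fit. CPM were scaled by TMM, and positions and exon lengths were from GENCODE vM21 (GRCm38). DESeq2 1.42.0, other scalings and filters, a replicate block and leaving out each heart were alternatives. Replicates were individual hearts. Same-numbered hearts did not deviate together (r = -0.216, -0.054 and -0.182). The edgeR step was tested on simulated data. The members and lists were chosen with earlier results of these data known. Genes named were all 10 members, the genes of each list that passed (up to 6) or otherwise the 2 with the largest absolute fold change at a mean log2 CPM of at least 0, *Smyd1*, and genes overlapping a member. Of the cell type lists, values bearing on a member or on the tissue of the hearts were given. Also given were *Nkx2-1* and *Ets1*, and *Sox10*, *Foxd3* and *Tfap2b* beside *Crabp1* and *Crabp2*.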

Additional observations from a re-analysis of the deposited data

How the results depend on the processing

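With all hearts, edgeR called 830 genes, 1 of the 10 epicardial genes and 6 related genes. These counts were within 1.5 times of those values under RLE or upper-quartile scaling, at least 10 counts in every heart, no mitochondrial and haemoglobin genes, or no limit on the fold change. DESeq2 called 1749 genes, 4 epicardial genes and 21 related genes. With no filter on low counts, 3 epicardial genes (*Krt19*, *Upk3b* and *Wt1*) and 11 related genes passed. A replicate block called 59 genes, 0 epicardial and 0 related genes, with *Krt19* at a log2 fold change of 1.75 and an adjusted P of 0.119 by edgeR. The labels give same-numbered hearts no shared litter or batch. With each heart left out in turn, 97 to 1256 genes, 0 to 4 epicardial genes and 0 to 8 related genes passed, with the fewest genes without WT heart 2 and the most without *Smyd1-KO* heart 1, and the median log2 fold change of the 10 genes was 0.40 to 0.80. Without *Smyd1-KO* heart 1 and WT heart 3, an alternative chosen after seeing the data, 2 epicardial and 3 related genes passed and the median was 0.93. The log2 fold change of *Aldh1a2* reversed to -0.43 without *Smyd1-KO* heart 1 and to -0.06 without WT heart 1, and ran up to 2.07. No other epicardial gene reversed under these alternatives. Exon length moved the order of levels, with 3 of 10 ranks kept. The cause of these shifts was not tested. Ratios to *Tcf21*, computed after seeing the data, are left out because *Tcf21* was picked for its nearly equal means. *Msln*, with 4 to 13 counts, was limited by depth, and was dropped by the filter of at least 10 counts.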

Other observations

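In the retinoic acid pathway *Crabp1* and *Crabp2*, named after their values were seen, stood apart in *Smyd1-KO* heart 1, the *Smyd1-KO* heart with the most *Aldh1a2*. *Crabp1*, a cytoplasmic retinoic acid binding protein, had 552.7, 122 and 44.2 CPM in the *Smyd1-KO* hearts numbered 1, 2 and 3, and 86.9, 94.6 and 96.9 CPM in the WT hearts. *Crabp2* had 259, 57.6 and 24.0 CPM against 54.1, 84.95 and 77.6 CPM. WT heart 3, the WT heart with the most *Aldh1a2*, did not stand apart for either gene. Among the neural crest markers, *Sox10* had 51.6, 20.2 and 1.56 CPM in the *Smyd1-KO* hearts and 8.71, 11.2 and 19.2 CPM in the WT hearts. *Foxd3* had 11.9, 1.12 and 0.0526 CPM against 0.0504, 0.473 and 0.451 CPM, and *Tfap2b* had 26.7, 8.68 and 1.75 CPM against 10.8, 3.45 and 10.6 CPM. The *Smyd1-KO* hearts thus had the same order for these markers as for *Crabp1* and *Crabp2*, and the part of neural crest cells in those values was not tested. Other genes of the pathway had other orders of hearts. *Cyp26c1*, which degrades retinoic acid, had 38.5, 53.7 and 3.77 CPM against 35.9, 6.69 and 35.5 CPM, with 1 low heart in each genotype that was not the same heart number. *Rbp4*, the carrier of retinol in blood, had 9.42, 2.42 and 10.7 CPM against 0.940, 2.54 and 0.856 CPM (log2 fold change 2.38, adjusted P = 0.0763 by edgeR).

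*Upk1a* and *Bnc2*, relatives of the 10 genes, were also named after their values were seen. *Upk1a*, another uroplakin, had 1.15, 0.947 and 1.96 CPM in the *Smyd1-KO* hearts and 0.470, 0.882 and 0.556 CPM in the WT hearts, with no overlap (log2 fold change 1.09, adjusted P = 0.130 by edgeR). *Bnc2*, the paralog of *Bnc1*, had 6.40, 4.62 and 8.27 CPM against 3.48, 4.44 and 5.29 CPM, and its groups overlapped.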
